A study of Mus musculus with 16 samples.

Results

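The late step of differentiation toward epiblast-like cells (EpiLC) was examined in wild-type (WT) mouse embryonic stem cells of the line ES-E14TG2a (E14) by comparing day 7 with day 4. The comparison rests on 4 of the 16 bulk RNA libraries of the series, 2 from WT day 7 and 2 from WT day 4, and covers every gene that could be tested. Both groups began as cells kept for weeks in serum-free medium with LIF, vitamin C and inhibitors of Gsk3 and MEK (2i), and both had then been moved to medium with Fgf2, Activin A and knock-out serum. Day 7 cells had in addition been split once more with accutase at day 4, so that 3 further days in culture and that passage cannot be told apart. The 2 TKO groups of the same days, whose genotype the labels do not expand, were grown in the same way and serve below as a comparison. Each group holds 2 libraries titled as biological replicates, and nothing further says how they were separated. The p-values measure the spread between libraries so titled. This spread was estimated over all 16 libraries of the series, not over the 4 compared alone.

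As background, embryonic stem cells in 2i resemble the preimplantation epiblast, a naive state with a sparsely methylated genome. Fgf2 and Activin A carry them through a formative state toward the primed state of the postimplantation epiblast, from which the primitive streak, endoderm and neuroectoderm arise. Activin A signals through the Nodal receptors, and its effects in the embryo are shaped by secreted antagonists of Nodal, Wnt and BMP made by the anterior endoderm. Over the same period DNA methylation is laid down anew and many promoters of germline genes are silenced.

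Total estimated counts were 41009992 and 40593593 in the WT day 7 libraries and 58197630 and 49300368 in the WT day 4 libraries. The day 7 libraries lay close together, with 7 of 10760 genes at 5 CPM (counts scaled to a common library size) or more over 2-fold apart. The day 4 libraries lay farther apart, with 79 of 10681 such genes, 33 higher in replicate 1 and 46 in replicate 2. Markers of pluripotent and epiblast-like cells (Pou5f1, Sox2, Sall4, Lin28a, Utf1, Epcam, Cdh1, Fgf5, Otx2 and Pou3f1) were present on both days; Pou3f1, the lowest of them at day 7, read 30.3 and 33.4 CPM at day 7 and 49.7 and 45.6 CPM at day 4. Of the markers of other cell types Mesp1 and Neurog2 had 2 counts or fewer in each group and were not tested, and Cdx2 and Elf5 stayed under 0.4 CPM in each of the 4 libraries. Others of these markers, among them Sox17 and Foxa2 of endoderm, T and Eomes of the streak and Krt7 of trophoblast, were present at day 7, with the values given below.

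Genes were compared with edgeR's quasi-likelihood test, with Benjamini-Hochberg adjusted p-values over all 18489 genes tested, and a gene is called at an adjusted p under 0.05. Errors given with a fold change are standard errors (SE). Between day 7 and day 4, 6811 genes were called (36.8% of those tested), 3280 of them higher (17.7%) and 3531 lower (19.1%). By 2-fold or more 1517 rose (8.2%) and 1509 fell (8.16%). The shares of 17.7% and 19.1% are those to set beside the counts called in each gene list below. Which direction held more calls depended on the processing: higher calls were the more numerous in 9 of 13 alternatives and lower calls in 4. DESeq2 called 3384 higher and 3333 lower, and limma on log2(TPM + 1) 3407 and 1951. Leaving out WT day 7 replicate 1 gave 2496 higher and 2155 lower, and leaving out WT day 7 replicate 2 gave 2711 and 2319. The median log2 fold change of all genes was -0.04.

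**Figure D1:**
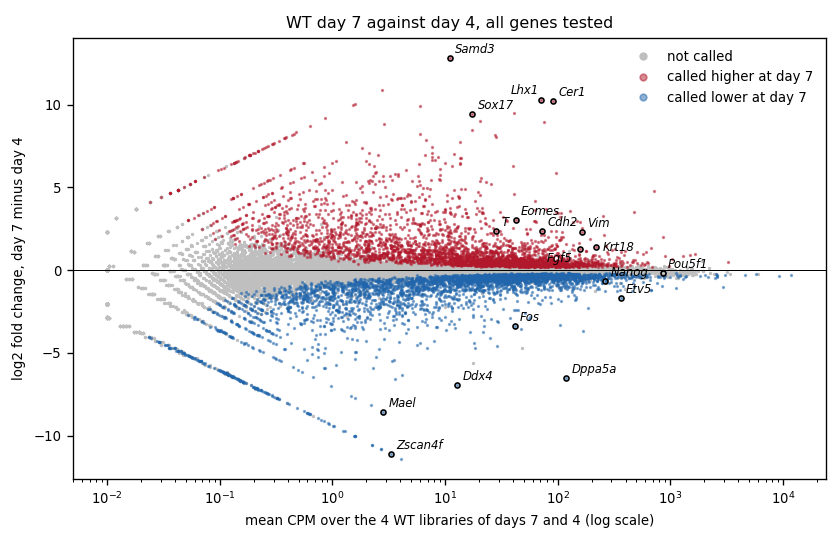
Each point is one of the 18489 genes tested, with its mean level over the 4 WT libraries on the horizontal axis (CPM, log scale) and its log2 fold change of day 7 over day 4 on the vertical axis. The 3280 genes called higher are red and the 3531 called lower are blue; straight diagonal rows at the left are genes with 0 counts on one day, whose fitted fold change depends on the prior count.

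Genes of the anterior streak and endoderm, and secreted antagonists of BMP and Nodal, were among the largest rises. Lhx1 (ENSMUSG00000018698.15, chromosome 11, 84518284 to 84525535), a LIM homeobox factor of the organizer and anterior mesendoderm, read 165 and 118 CPM in the WT day 7 libraries, against 0.103 and 0.125 CPM in the WT day 4 libraries, a log2 fold change of 10.25 ± 0.76, adjusted p = 2.89e-06. Cer1, a secreted antagonist of Nodal and BMP ligands, read 209 and 154 CPM in the WT day 7 libraries, against 0.172 and 0.125 CPM in the WT day 4 libraries (log2 fold change 10.21 ± 0.74, adjusted p = 2.3e-06). Both genes were near absent from both day 4 libraries and abundant in both day 7 libraries. Sox17 (ENSMUSG00000025902.13, chromosome 1, 4490931 to 4497354), a determinant of definitive endoderm, read 40.8 and 29.2 CPM in the WT day 7 libraries, against 0.0862 and 0 CPM in the WT day 4 libraries (log2 fold change 9.45 ± 0.50, adjusted p = 1.91e-08). Hesx1, a homeobox repressor of the anterior endoderm and forebrain, had 990 counts at day 7 and 1 at day 4, a ratio of 1264 (95% counting interval 226 to 49973). Samd3, a protein with a sterile alpha motif, had 0 counts in both day 4 libraries and 24.6 and 19.1 CPM at day 7, at least 772-fold higher if the day 4 group is set at 3 counts, the limit that 0 allows. Nog, which encodes the BMP antagonist Noggin, had 0 counts at day 4 as well and 5.41 and 5.69 CPM at day 7, at least 196-fold higher. Floors and counting intervals cover counting error only.

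Enzymes, ligands and matrix genes stood among the other large rises. Cyp26a1, which degrades retinoic acid, read 163 and 135 CPM at day 7, against 0.155 and 0.460 CPM at day 4 (log2 fold change 8.97 ± 0.90). Bmp2, a BMP ligand, read 37.1 and 32.2 CPM at day 7, against 0.0862 and 0.105 CPM at day 4 (log2 fold change 8.47 ± 0.35). Bmper, a secreted regulator of BMP, read 12.8 and 11.1 CPM at day 7, against 0.0517 and 0.0209 CPM at day 4 (log2 fold change 8.20 ± 0.53). All 3 were under 0.5 CPM in both day 4 libraries. Pga5, a pepsinogen, read 98.1 and 66.2 CPM at day 7, against 0.121 and 0.105 CPM at day 4 (log2 fold change 9.46 ± 1.01). Spink1, a trypsin inhibitor, read 47.1 and 34.0 CPM at day 7, against 0.0345 and 0.125 CPM at day 4 (log2 fold change 9.01 ± 1.15, adjusted p = 0.000364). Postn, the matrix protein periostin, had 471 counts at day 7 and 1 at day 4, a ratio of 601 (95% counting interval 107 to 23801). In none of these genes did the day 7 and day 4 libraries overlap, which the rule for naming the largest rises required.

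**Figure D2:**
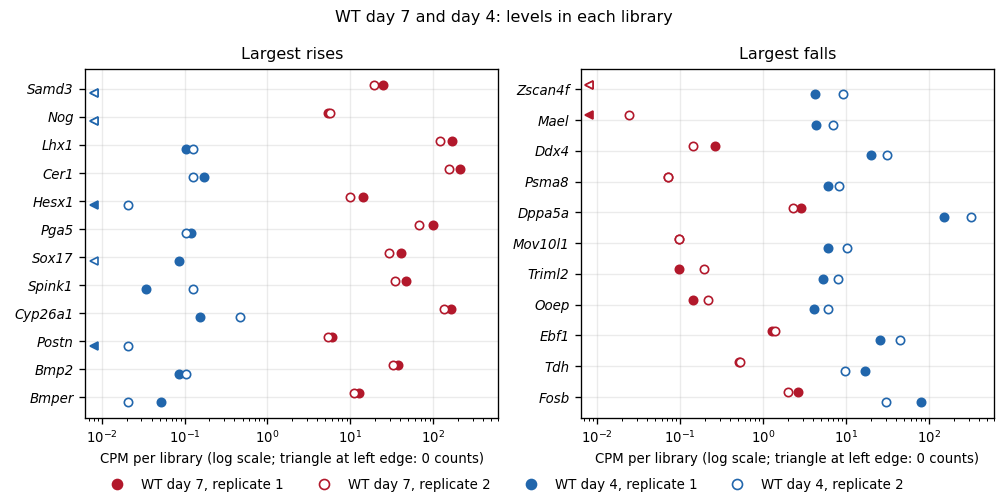
Levels in CPM (log scale) of the 12 largest rises (left) and 11 of the 12 largest falls (right) among called protein-coding genes at 5 CPM or more, with day 7 in red above day 4 in blue, replicate 1 filled and replicate 2 open. Triangles at the left edge mark libraries with 0 counts; the 2 days do not overlap for any gene drawn, which the rule for naming them required.

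Promoter windows of 300 bases (250 before to 50 after the annotated start, gene strand, RefSeq on GRCm38.p6) are shown for the 2 largest rises and 2 largest falls of the plotted kind (called protein-coding genes at 5 CPM or more) with an entry in the RefSeq table, with each CG dinucleotide in capitals, since the series concerns a period in which CG sites gain methylation. The windows are Samd3 at chr10:26229457-26229756, plus strand, Lhx1 at chr11:84525485-84525784, minus strand, Zscan4f at chr7:11397665-11397964, plus strand and Mael at chr1:166238695-166238994, minus strand.
Samd3: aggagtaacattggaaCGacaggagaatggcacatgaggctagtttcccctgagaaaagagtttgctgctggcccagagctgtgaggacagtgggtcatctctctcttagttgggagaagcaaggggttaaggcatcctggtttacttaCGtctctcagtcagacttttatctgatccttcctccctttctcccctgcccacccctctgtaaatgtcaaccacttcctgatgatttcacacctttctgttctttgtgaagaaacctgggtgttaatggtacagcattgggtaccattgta
Lhx1: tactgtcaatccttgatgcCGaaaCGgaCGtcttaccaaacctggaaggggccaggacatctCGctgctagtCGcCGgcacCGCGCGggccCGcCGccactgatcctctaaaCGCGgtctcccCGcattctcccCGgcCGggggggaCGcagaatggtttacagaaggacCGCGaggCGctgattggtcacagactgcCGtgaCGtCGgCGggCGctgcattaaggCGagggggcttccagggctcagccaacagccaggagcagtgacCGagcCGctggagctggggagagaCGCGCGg
Zscan4f: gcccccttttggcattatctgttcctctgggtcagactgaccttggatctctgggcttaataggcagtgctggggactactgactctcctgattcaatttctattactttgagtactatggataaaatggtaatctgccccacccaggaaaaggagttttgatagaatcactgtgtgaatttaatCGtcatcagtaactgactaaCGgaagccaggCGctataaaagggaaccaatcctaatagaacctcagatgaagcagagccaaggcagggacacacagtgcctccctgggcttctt
Mael: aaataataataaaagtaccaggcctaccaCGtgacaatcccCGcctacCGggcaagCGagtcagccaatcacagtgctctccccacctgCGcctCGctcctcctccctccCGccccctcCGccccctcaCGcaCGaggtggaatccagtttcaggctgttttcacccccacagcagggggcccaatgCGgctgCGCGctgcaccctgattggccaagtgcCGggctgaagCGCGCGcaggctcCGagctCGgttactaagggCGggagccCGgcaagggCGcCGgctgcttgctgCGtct
The windows hold 2 CG dinucleotides in Samd3, 31 in Lhx1, 3 in Zscan4f and 24 in Mael, against a median of 7 over the 32851 windows of the table. Both a CG-rich and a CG-poor window thus stand among the rises and among the falls. In the Zscan4f window TATAAA, the TATA box, begins at -31 relative to the start; on either strand it is found in 13.6% of all windows.

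Endoderm genes rose together. Of the 22 genes listed, 15 rose and 3 fell (median log2 fold change 2.78), against 17.7% and 19.1% of all genes tested, and the list summed to 998 and 830.1 CPM at day 7, against 176 and 135 CPM at day 4. Gata6, a factor of extraembryonic and definitive endoderm, read 18.5 and 12.2 CPM at day 7, against 0.103 and 0.0627 CPM at day 4 (log2 fold change 7.45 ± 0.57). Gata4 read 28.3 and 19.6 CPM at day 7, against 1.81 and 1.57 CPM at day 4 (log2 fold change 3.82 ± 0.42). Cxcr4, a chemokine receptor carried by definitive endoderm, read 53.1 and 36.6 CPM at day 7, against 1.03 and 1.25 CPM at day 4 (log2 fold change 5.30 ± 0.23). The forkhead factors of endoderm rose too. Foxa1 read 16.8 and 13.1 CPM at day 7, against 0.931 and 1.74 CPM at day 4 (log2 fold change 3.50 ± 0.23). Foxa2 read 46.1 and 39.2 CPM at day 7, against 2.71 and 10.7 CPM at day 4 (log2 fold change 2.68 ± 0.43, adjusted p = 0.000546). The call of Foxa2 was lost in a fit of only the 4 libraries compared (adjusted p = 0.0501). The 3 members that fell were Trf, the iron carrier transferrin (log2 fold change -3.27 ± 0.39), Lama1, a basement membrane laminin (log2 fold change -1.26 ± 0.25), and Dab2, an endocytic adaptor of visceral endoderm (log2 fold change -1.12 ± 0.35, adjusted p = 0.0258). The call of Dab2 was lost without any 1 of the 4 libraries (adjusted p 0.0762 to 0.125). In bulk RNA more cells of a type and more RNA per cell cannot be told apart.

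Primitive streak and mesoderm genes were higher in the same libraries. Of 25 genes listed 23 were tested, and 14 rose and 5 fell, against 17.7% and 19.1% of all genes tested. The median log2 fold change was 1.52, or 1.37 counting members at 0 on one day by their bound. The list summed to 425 and 330.4 CPM at day 7, against 42.5 and 89.7 CPM at day 4. Gsc, the organizer factor Goosecoid, read 31.3 and 22.6 CPM at day 7, against 0.224 and 0.418 CPM at day 4 (log2 fold change 6.41 ± 0.32). Mixl1, a streak homeobox factor, read 7.56 and 6.17 CPM at day 7, against 0.328 and 0.920 CPM at day 4 (log2 fold change 3.50 ± 0.28). Tbx20, a T-box factor of the early heart, read 12.3 and 9.94 CPM at day 7, against 1.33 and 0.690 CPM at day 4 (log2 fold change 3.44 ± 0.29). Eomes, which directs the anterior streak and definitive endoderm, read 84.6 and 67.1 CPM in the WT day 7 libraries, against 5.66 and 13.3 CPM in the WT day 4 libraries (log2 fold change 3.01 ± 0.34, adjusted p = 4.05e-05). T, the Brachyury factor of the streak, read 51.6 and 42.9 CPM in the WT day 7 libraries, against 3.81 and 15.1 CPM in the WT day 4 libraries (log2 fold change 2.34 ± 0.61, adjusted p = 0.0131). For T, Eomes, Mixl1 and Foxa2 the 2 day 4 libraries differed more than 2-fold, with replicate 2 the higher in each. The call of T was lost without WT day 7 replicate 1 (adjusted p = 0.0547) and in a fit of only the libraries compared (0.0701). Among the members that fell, the BMP ligand Bmp4 read 4.10 and 3.52 CPM at day 7, against 7.53 and 7.92 CPM at day 4 (log2 fold change -1.02 ± 0.15). Tbx6, a factor of presomitic mesoderm, read 0.434 and 0.579 CPM at day 7, against 1.72 and 1.32 CPM at day 4 (log2 fold change -1.58 ± 0.31). Mesp2, a segmentation factor, read 0.314 and 0.193 CPM at day 7, against 0.672 and 1.00 CPM at day 4 (log2 fold change -1.71 ± 0.41, adjusted p = 0.00487, and 0.0617 without WT day 7 replicate 2). The count of 5 lower members was 3 without WT day 7 replicate 1 or WT day 4 replicate 2 and 2 without WT day 7 replicate 2.

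Neural genes moved both ways. Of 28 genes listed 25 were tested, 12 rose and 6 fell (median log2 fold change 0.85), beside 17.7% and 19.1% of all genes tested. Nkx6-1, a factor of ventral neural tube and pancreas, read 4.25 and 3.93 CPM at day 7, against 0.138 and 0.0627 CPM at day 4 (log2 fold change 5.27 ± 0.46). Sox21, of neural progenitors, read 8.09 and 7.64 CPM at day 7, against 0.603 and 0.397 CPM at day 4 (log2 fold change 3.95 ± 0.33). Irx3, of the neural plate, read 20.1 and 17.1 CPM at day 7, against 1.60 and 1.23 CPM at day 4 (log2 fold change 3.71 ± 0.31). All 3 were under 2 CPM in both day 4 libraries. Sox1, an early marker of neuroectoderm, fell to 11.3 and 8.87 CPM at day 7, against 17.3 and 17.7 CPM at day 4 (log2 fold change -0.80 ± 0.16, adjusted p = 0.00117). Pax6, of the forebrain and eye, fell to 2.73 and 2.53 CPM at day 7, against 6.05 and 6.69 CPM at day 4 (log2 fold change -1.27 ± 0.25). Neurod1, a factor of neuronal differentiation, fell to 1.69 and 1.69 CPM at day 7, against 7.02 and 4.66 CPM at day 4 (log2 fold change -1.79 ± 0.23). Tubb3, a neuronal tubulin, rose to 51.9 and 51.2 CPM at day 7, against 26.0 and 9.74 CPM at day 4 (log2 fold change 1.52 ± 0.31, adjusted p = 0.0028), with day 4 replicates over 2-fold apart; its call was lost in a fit of only the libraries compared (adjusted p = 0.0900).

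Genes of trophoblast and simple epithelium rose. Of 16 listed 14 were tested, 10 rose and 0 fell (median log2 fold change 2.44); 0 fell at an unadjusted p under 0.05 in edgeR, and 0 were called lower by DESeq2 or limma and 1 in a fit of only the 8 WT libraries. Gata3, of trophoblast and surface ectoderm, read 9.80 and 8.22 CPM at day 7, against 0.293 and 0.460 CPM at day 4 (log2 fold change 4.59 ± 0.38). The keratins of simple epithelia followed. Krt7 read 28.7 and 26.3 CPM at day 7, against 3.81 and 5.69 CPM at day 4 (log2 fold change 2.54 ± 0.19). Krt18 read 317 and 313 CPM at day 7, against 133 and 109 CPM at day 4 (log2 fold change 1.39 ± 0.13). Cdx2 and Elf5, determinants of trophoblast, stayed low. Cdx2 had 21 counts at day 7 and 0 at day 4, at least 8.94-fold higher. Elf5 read 0.169 and 0.338 CPM at day 7 and 0.241 and 0.125 CPM at day 4 (log2 fold change 0.44 ± 0.56, adjusted p = 0.586), which was not called. Eomes, Cdx2 and Krt18 stand on other lists too.

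Fibroblast and stromal genes, a list of 17 of which 14 were tested, had 9 higher and 2 lower members (median log2 fold change 2.32), and 1 lower without WT day 7 replicate 1 or WT day 4 replicate 1. The fibrillar collagen Col1a1 read 6.83 and 3.69 CPM at day 7, against 0.414 and 0.272 CPM at day 4 (log2 fold change 3.91 ± 0.38). Col3a1 read 10.2 and 2.56 CPM at day 7, against 0.172 and 0.0627 CPM at day 4 (log2 fold change 5.68 ± 0.73). Dcn and Thy1, which also mark such cells, fell. Dcn, the matrix proteoglycan decorin, read 0.459 and 0.386 CPM at day 7, against 6.31 and 3.45 CPM at day 4 (log2 fold change -3.53 ± 0.62). Thy1 read 5.43 and 7.74 CPM at day 7, against 19.9 and 10.9 CPM at day 4 (log2 fold change -1.23 ± 0.28, adjusted p = 0.00322; 0.0588 without WT day 7 replicate 1 and 0.0711 without WT day 4 replicate 1). The list summed to 669 and 687 CPM at day 7, against 183 and 93.8 CPM at day 4, much of it Vim and Acta2, which were present at day 4 too. The part of other cell types in the rises given here was not tested.

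Naive pluripotency genes fell, and core genes were divided. Of 21 naive genes 13 fell and 3 rose (median log2 fold change -1.01), against 19.1% and 17.7% of all genes, and 1 rose without WT day 7 replicate 1 or WT day 4 replicate 2; the list summed to 271 and 288 CPM at day 7, against 570.4 and 828 CPM at day 4. Dppa5a, an RNA-binding protein of naive cells, read 2.87 and 2.27 CPM in the WT day 7 libraries, against 149.7 and 323 CPM in the WT day 4 libraries (log2 fold change -6.52 ± 0.51, adjusted p = 3.78e-06). Tdh, the threonine dehydrogenase of naive mouse cells, read 0.507 and 0.531 CPM at day 7, against 16.8 and 9.80 CPM at day 4 (log2 fold change -4.68 ± 0.30). Fbxo15, an F-box protein, read 4.47 and 5.52 CPM at day 7, against 24.8 and 23.1 CPM at day 4 (log2 fold change -2.26 ± 0.12). Zfp42, the naive marker Rex1, read 1.01 and 0.603 CPM at day 7, against 6.91 and 8.88 CPM at day 4 (log2 fold change -3.28 ± 0.32). The days did not overlap in any of the 4, nor in 6147 higher and 7109 lower genes of the 18489 tested. Nanog read 196 and 215 CPM in the WT day 7 libraries, against 286 and 363 CPM in the WT day 4 libraries (log2 fold change -0.66 ± 0.11, adjusted p = 0.000252), with no overlap between the days. Esrrb read 2.66 and 2.34 CPM at day 7, against 5.59 and 8.45 CPM at day 4 (log2 fold change -1.48 ± 0.41, adjusted p = 0.0156), with its call lost without WT day 7 replicate 1 (0.0702) or 2 (0.0918) or WT day 4 replicate 2 (0.0971). Klf4 read 1.76 and 2.24 CPM at day 7, against 3.76 and 2.42 CPM at day 4 (log2 fold change -0.64 ± 0.21, adjusted p = 0.0277), lost without WT day 7 replicate 1 (0.244) or WT day 4 replicate 1 (0.429). Tfcp2l1, another naive factor, was not called at 8.57 and 6.87 CPM at day 7 and 6.81 and 5.16 CPM at day 4 (log2 fold change 0.36 ± 0.20, adjusted p = 0.189). Klf5 (log2 fold change 0.97 ± 0.20), Jam2 (log2 fold change 0.83 ± 0.21) and Tbx3 (log2 fold change 1.55 ± 0.42) were the 3 members that rose, of which Jam2 and Tbx3 lost their calls without single libraries (adjusted p up to 0.0799 and 0.0866).

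Of 12 core pluripotency genes 4 rose and 4 fell (median log2 fold change -0.18), beside 17.7% and 19.1% of all genes tested. Pou5f1, the factor Oct4, read 779 and 823 CPM in the WT day 7 libraries, against 866 and 965 CPM in the WT day 4 libraries, a difference that was not called (log2 fold change -0.19 ± 0.13, adjusted p = 0.259). Sall4, a zinc finger factor, rose to 219 and 199 CPM at day 7, against 127 and 139 CPM at day 4 (log2 fold change 0.65 ± 0.08). Lin28a, which blocks let-7 maturation, rose to 588 and 576 CPM at day 7, against 448 and 428 CPM at day 4 (log2 fold change 0.41 ± 0.08). Sox2 rose to 59.1 and 53.9 CPM at day 7, against 33.8 and 42.1 CPM at day 4 (log2 fold change 0.58 ± 0.20, adjusted p = 0.0377), a call lost without either WT day 7 library (0.147 and 0.0701) or WT day 4 replicate 1 (0.191). Dppa4 and Dppa2, partner DNA-binding proteins of pluripotent cells, fell. Dppa4 read 2.85 and 3.16 CPM at day 7, against 41.5 and 38.8 CPM at day 4 (log2 fold change -3.74 ± 0.14, adjusted p = 1.61e-09). Dppa2 read 1.33 and 0.796 CPM at day 7, against 5.02 and 9.30 CPM at day 4 (log2 fold change -2.74 ± 0.44). Utf1 fell to 79.0 and 89.3 CPM at day 7, against 160.1 and 178 CPM at day 4 (log2 fold change -1.0 ± 0.14).

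Formative and primed epiblast genes split, with 7 of 22 higher and 9 lower (median log2 fold change -0.25), beside 17.7% and 19.1% of all genes tested. Fgf5, a ligand that marks the postimplantation epiblast, rose to 243 and 207 CPM in the WT day 7 libraries, against 82.4 and 99.8 CPM in the WT day 4 libraries (log2 fold change 1.30 ± 0.21, adjusted p = 0.000529). Cdh2, the mesenchymal N-cadherin, rose to 136 and 109 CPM at day 7, against 25.3 and 21.4 CPM at day 4 (log2 fold change 2.39 ± 0.12, adjusted p = 8.5e-09). Otx2, a homeobox factor of the formative state, was not called at 218 and 176 CPM at day 7 and 159 and 174 CPM at day 4 (log2 fold change 0.24 ± 0.10, adjusted p = 0.0863); it passed without WT day 7 replicate 2 (0.0160). Pou3f1, the formative factor Oct6, fell to 30.3 and 33.4 CPM at day 7, against 49.7 and 45.6 CPM at day 4 (log2 fold change -0.58 ± 0.15, adjusted p = 0.00784), a call lost without WT day 7 replicate 1 (0.0962) or WT day 4 replicate 1 (0.0637). Other factors of the list fell further. Foxd3 fell to 6.13 and 5.38 CPM at day 7, against 18.3 and 22.5 CPM at day 4 (log2 fold change -1.82 ± 0.17). Etv5, an Ets factor downstream of FGF, fell to 168 and 174 CPM at day 7, against 485 and 619.7 CPM at day 4 (log2 fold change -1.69 ± 0.10). Sall2 fell to 87.0 and 81.6 CPM at day 7, against 178 and 198 CPM at day 4 (log2 fold change -1.16 ± 0.11).

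**Figure D3:**
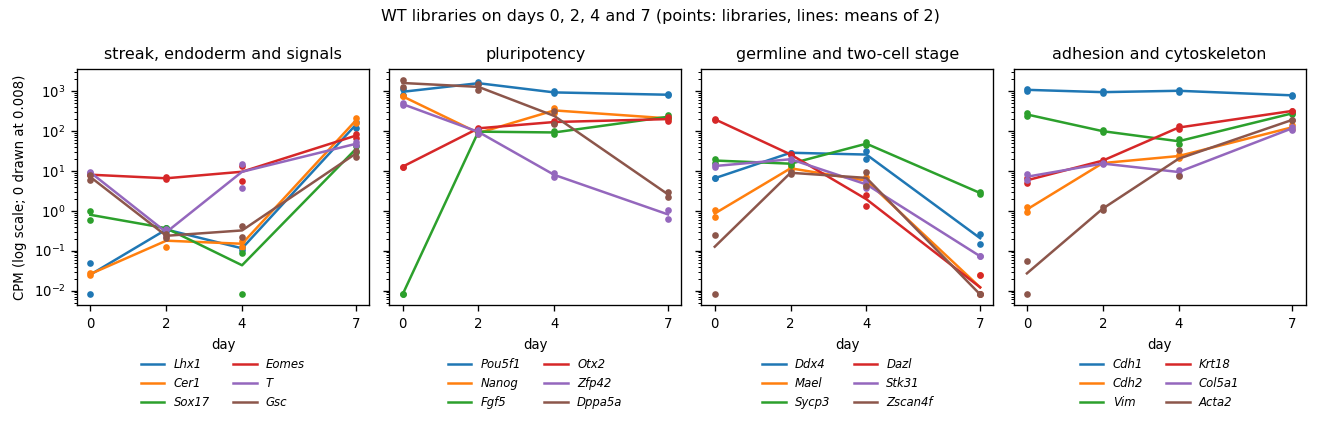
WT levels in CPM (log scale) on days 0, 2, 4 and 7, with points for libraries and lines through the means of 2; a library at 0 counts is drawn at 0.008. Lhx1, Cer1 and Sox17 rose between day 4 and day 7 after low values on the earlier days, while Ddx4, Mael, Stk31 and Zscan4f fell between day 4 and day 7.

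Germline genes fell almost throughout. Of 36 listed 35 were tested, 32 fell and 0 rose (median log2 fold change -4.10, or -3.50 counting members at 0 by their bound), against 19.1% and 17.7% of all genes; 0 rose at an unadjusted p under 0.05 in edgeR, and 0 were called higher by DESeq2 or limma. The list summed to 60.1 and 60.9 CPM at day 7, against 246 and 318 CPM at day 4. Ddx4 (ENSMUSG00000021758.14, chromosome 13, 112598333 to 112652475), the germ cell RNA helicase Vasa, read 0.266 and 0.145 CPM in the WT day 7 libraries, against 20.1 and 30.8 CPM in the WT day 4 libraries (log2 fold change -6.93 ± 0.29, adjusted p = 2.49e-09). Mael, a piRNA pathway protein, had 1 count at day 7 and 586 at day 4, a ratio of day 4 over day 7 of 459 (95% counting interval 82.1 to 18160.0). Mov10l1, an RNA helicase of the same pathway, read 0.0966 and 0.0965 CPM at day 7, against 6.00 and 10.2 CPM at day 4 (log2 fold change -6.34 ± 0.35). Stk31, a Tudor domain kinase of germ cells, read 0.0724 and 0.0723 CPM at day 7, against 3.66 and 5.46 CPM at day 4 (log2 fold change -5.91 ± 0.33). Ddx4, Mov10l1 and Stk31 were under 0.3 CPM in both day 7 libraries. Sycp3, of the synaptonemal complex that pairs meiotic chromosomes, read 2.63 and 2.92 CPM at day 7, against 43.4 and 52.0 CPM at day 4 (log2 fold change -4.10 ± 0.17). Dazl, a germ cell RNA-binding protein, had 1 count at day 7 and 199 at day 4, a ratio of day 4 over day 7 of 156 (95% counting interval 27.7 to 6187). The named members differed in their course before day 4. Dazl averaged 195 CPM on day 0, 25.6 CPM on day 2, 1.94 CPM on day 4 and 0.0121 CPM on day 7. Ddx4 averaged 6.51 CPM on day 0, 28.3 CPM on day 2, 25.5 CPM on day 4 and 0.205 CPM on day 7. Psma8, a proteasome subunit of the testis, read 0.0724 and 0.0723 CPM at day 7, against 6.00 and 8.22 CPM at day 4 (log2 fold change -6.55 ± 0.25). Ooep, an oocyte protein, read 0.145 and 0.217 CPM at day 7, against 4.05 and 6.00 CPM at day 4 (log2 fold change -4.77 ± 0.30). Both stand outside the list.

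Windows around the start were found for 30 of the 32 germline genes that fell, 37 windows in all, and 16 of the 37 (43.2%), from 12 genes, hold CACGTG, the palindromic E-box bound by Myc and Max family factors. The same letters occur in 7.15% of the 32851 windows of the RefSeq table and in 10.9% of the 14281 windows with 10 or more CG dinucleotides; the germline windows have a median of 19. GCGGGA, a site of E2F family factors, was found on either strand in 43.2% of the germline windows, 20.0% of all windows and 40.3% of those rich in CG. Both motifs were chosen with the values of these genes known, windows of one gene overlap, and a match describes the letters only. The stretches around the E-box (in capitals) are shown for the genes named above, on the gene strand, at chr13:112652322-112652351 (Ddx4), chr1:166238950-166238979 (Mael), chr15:88982744-88982765 (Mov10l1), chr6:49395472-49395501 (Stk31) and chr10:88459511-88459540 (Sycp3).
Ddx4: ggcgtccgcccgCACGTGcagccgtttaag
Mael: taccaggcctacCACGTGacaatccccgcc
Mov10l1: ccttCACGTGctaaccgccaac
Stk31: aggccggccaccCACGTGaccagggctgcg
Sycp3: gccgttggctccCACGTGagaacgggcatg
Dazl has a window too, with 28 CG dinucleotides and no CACGTG.

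Genes of the two-cell embryo fell below detection in part, though the sum of their list did not fall. It stood at 161 and 165 CPM in the WT day 7 libraries, against 141 and 157 CPM in the WT day 4 libraries. Of 18 listed 17 were tested, 14 fell and 1 rose (median log2 fold change -6.22, or -3.07 counting members at 0 by their bound); 9 fell without WT day 7 replicate 2. Zscan4f, a SCAN-domain zinc finger gene of the two-cell stage, had 0 counts in both day 7 libraries, against 4.19 and 9.07 CPM in the WT day 4 libraries, at least 177-fold lower. Zscan4c (at least 119.6-fold lower) and Zscan4d (at least 67.4-fold lower) were at 0 counts as well. Usp17lb, of a family of multicopy deubiquitinases, had 1 count at day 7 and 101 at day 4, a ratio of day 4 over day 7 of 79.1 (95% counting interval 13.9 to 3155). The Zscan4 and Usp17l genes are near-identical copies, and the level of any one of them is uncertain because reads are shared. Eif1a, a translation initiation factor, was the 1 member that rose (log2 fold change 0.42 ± 0.08). With limma on log2(TPM + 1), 9 members of the list were called lower.

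X-linked genes of the Rhox, Xlr and Mage families, active in testis and placenta, were called lower in 11 of the 22 tested (of 24 listed) and higher in 0 (median log2 fold change -0.52); 0 were higher at an unadjusted p under 0.05 in edgeR and 0 by DESeq2 or limma. The lower count was 7 without WT day 7 replicate 1, 5 without WT day 7 replicate 2 and 6 without WT day 4 replicate 2. Mageb16 read 0.362 and 0.313 CPM at day 7, against 2.60 and 1.82 CPM at day 4 (log2 fold change -2.71 ± 0.38). Xlr read 0.628 and 0.844 CPM at day 7, against 2.17 and 1.82 CPM at day 4 (log2 fold change -1.44 ± 0.27). Rhox13 had 0 counts at day 7 and 32 at day 4, at least 8.35-fold lower. These families hold near-identical copies too, and 14 of the 22 averaged under 1 CPM on both days.

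Genes of the DNA methylation machinery did not stand out by their count of calls. Of 17 genes 2 rose and 4 fell (median log2 fold change -0.10), beside 17.7% and 19.1% of all genes tested. The lower count was 0 without WT day 7 replicate 1, 1 without WT day 7 replicate 2 or WT day 4 replicate 2, and 2 without WT day 4 replicate 1. The higher count was 1 without WT day 7 replicate 1 and 0 without WT day 4 replicate 2. Dnmt1, the maintenance methyltransferase, read 310.3 and 313 CPM at day 7 and 313 and 319.9 CPM at day 4, with no call (log2 fold change -0.02 ± 0.09, adjusted p = 0.877). The de novo enzyme Dnmt3b read 991 and 965 CPM at day 7, against 1516 and 1245 CPM at day 4 (log2 fold change -0.50 ± 0.19, adjusted p = 0.0538), just outside the threshold; it was called lower by DESeq2 (0.0331) and in fits of only the libraries compared (0.0123) or only the 8 WT libraries (0.0210). Dnmt3a, the other de novo enzyme, read 199.7 and 201 CPM at day 7, against 297 and 380.1 CPM at day 4 (log2 fold change -0.76 ± 0.54, adjusted p = 0.319). The TKO day 4 libraries, at 187 and 33.9 CPM, enter its estimate of the spread. It was called lower in a fit of only the libraries compared (0.00663). Dnmt3l, their cofactor, fell to 0.434 and 0.458 CPM at day 7, against 2.10 and 2.28 CPM at day 4 (log2 fold change -2.28 ± 0.57, adjusted p = 0.00868), a call lost without WT day 7 replicate 1 (0.0569). Tet2, a dioxygenase that oxidises methylcytosine, fell to 12.2 and 13.7 CPM at day 7, against 20.2 and 28.5 CPM at day 4 (log2 fold change -0.90 ± 0.27, adjusted p = 0.02), lost without WT day 7 replicate 1 (0.138) or 2 (0.0698) or WT day 4 replicate 2 (0.148). Zfp57, which protects imprints, rose to 46.6 and 50.4 CPM at day 7, against 34.3 and 29.8 CPM at day 4 (log2 fold change 0.60 ± 0.15; 0.0666 without WT day 4 replicate 2).

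Among 31 Polycomb genes, which hold the histone-based silencing complexes PRC1 and PRC2, 9 rose and 8 fell (median log2 fold change -0.02), and 5 fell without WT day 7 replicate 1 or WT day 4 replicate 1. Over all genes tested 17.7% rose and 19.1% fell. Members of one complex family moved in opposite directions. The chromobox gene Cbx7, abundant in stem cells, fell to 102 and 107 CPM at day 7, against 249 and 228 CPM at day 4 (log2 fold change -1.19 ± 0.07, adjusted p = 7.15e-08). Its paralogue Cbx8 rose to 2.44 and 2.68 CPM at day 7, against 0.672 and 0.544 CPM at day 4 (log2 fold change 2.06 ± 0.27). Likewise Phc1 fell to 547 and 574 CPM at day 7, against 961 and 975 CPM at day 4 (log2 fold change -0.79 ± 0.07). Phc2 rose to 88.7 and 89.2 CPM at day 7, against 31.1 and 39.0 CPM at day 4 (log2 fold change 1.34 ± 0.12). Ezh1, a methyltransferase of PRC2, fell to 22.8 and 23.5 CPM at day 7, against 64.3 and 58.1 CPM at day 4 (log2 fold change -1.40 ± 0.10).

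Imprinted genes, of which 39 of 40 listed were tested, had 17 higher and 8 lower (median log2 fold change 0.39; 5 lower without WT day 7 replicate 1). Asb4 read 16.3 and 13 CPM at day 7, against 0.241 and 0.439 CPM at day 4 (log2 fold change 5.45 ± 0.21). Nnat read 340.0 and 263 CPM at day 7, against 93.8 and 72.9 CPM at day 4 (log2 fold change 1.85 ± 0.14). Usp29 read 45.1 and 41.1 CPM at day 7, against 9.84 and 8.47 CPM at day 4 (log2 fold change 2.23 ± 0.17). The share that fell was near that of all genes tested (19.1%), while the share that rose was above it (17.7%). Cdkn1c, Igf2r and Copg2 were among the members that fell. Cdkn1c, an inhibitor of cyclin-dependent kinases, fell to 0.362 and 0.289 CPM at day 7, against 1.83 and 1.99 CPM at day 4 (log2 fold change -2.54 ± 0.33). Igf2r, a receptor that clears Igf2, fell to 64.9 and 70.2 CPM at day 7, against 128 and 122 CPM at day 4 (log2 fold change -0.89 ± 0.15). Zdbf2 was not called at 222 and 236 CPM at day 7 and 175 and 126 CPM at day 4 (log2 fold change 0.60 ± 0.38, adjusted p = 0.246); in a fit of only the libraries compared it was called higher (0.0411). Copg2, a coat protein gene, fell to 108 and 112 CPM at day 7, against 144 and 164 CPM at day 4 (log2 fold change -0.48 ± 0.08).

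The signalling pathways differed in how far they moved. BMP pathway genes rose most often, with 16 of 22 higher and 1, Bmp4, lower (median log2 fold change 0.79). Besides Bmp2 and Nog, Chrd, the BMP antagonist Chordin, rose to 22.7 and 21.0 CPM at day 7, against 2.28 and 2.22 CPM at day 4 (log2 fold change 3.28 ± 0.12, adjusted p = 1.61e-09). Wnt pathway genes had 19 of 40 higher and 10 lower (median log2 fold change 0.71; 6 lower by limma). Dkk1, a secreted Wnt antagonist, rose to 59.9 and 50.4 CPM at day 7, against 0.138 and 0.251 CPM at day 4 (log2 fold change 8.16 ± 0.45). Sfrp5, another, rose to 31.5 and 23.5 CPM at day 7, against 0.293 and 0.209 CPM at day 4 (log2 fold change 6.74 ± 0.31). The receptor Fzd5 rose to 299 and 225 CPM at day 7, against 36.2 and 31.4 CPM at day 4 (log2 fold change 2.95 ± 0.14). Over all genes tested 17.7% rose and 19.1% fell, so the 10 lower Wnt members stood not far from the latter share. Axin2, Tcf7 and Sfrp2 were among them. Axin2, a common transcriptional target of Wnt, fell to 10.7 and 11.3 CPM at day 7, against 24.5 and 29.5 CPM at day 4 (log2 fold change -1.29 ± 0.15, adjusted p = 1.94e-05). Tcf7, an effector, fell to 58.2 and 61.4 CPM at day 7, against 113 and 121 CPM at day 4 (log2 fold change -0.97 ± 0.07). Sfrp2, another antagonist, fell to 18.3 and 17.3 CPM at day 7, against 35.3 and 36.2 CPM at day 4 (log2 fold change -1.01 ± 0.12).

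Nodal and Activin pathway genes had 6 of 25 higher and 6 lower (median log2 fold change 0.14), near the share of all genes. Fst, the Activin-binding protein follistatin, rose to 28.0 and 23.6 CPM at day 7, against 8.95 and 11.2 CPM at day 4 (log2 fold change 1.36 ± 0.19). Inhbb, an Activin subunit, rose to 1.45 and 0.627 CPM at day 7, against 0.121 and 0.0836 CPM at day 4 (log2 fold change 3.29 ± 0.51). A ligand, a processing enzyme and a corepressor fell. Gdf3, a ligand of the family, fell to 11.7 and 13.9 CPM at day 7, against 59.1 and 78.6 CPM at day 4 (log2 fold change -2.42 ± 0.16). Pcsk6, a protease that processes Nodal, fell to 6.57 and 6.44 CPM at day 7, against 15.2 and 14.8 CPM at day 4 (log2 fold change -1.21 ± 0.10). Tgif1, a corepressor, fell to 109 and 102 CPM at day 7, against 133 and 143 CPM at day 4 (log2 fold change -0.38 ± 0.07). FGF-ERK targets had 10 of 30 higher and 9 lower (median log2 fold change -0.07). For this list and the Notch list below, the shares of all genes tested were 17.7% and 19.1%. The immediate-early genes Fos and Fosb fell. Fos read 7.48 and 6.94 CPM in the WT day 7 libraries, against 94.1 and 57.0 CPM in the WT day 4 libraries (log2 fold change -3.39 ± 0.20, adjusted p = 6.54e-08). Fosb read 2.63 and 1.98 CPM at day 7, against 79.8 and 30.2 CPM at day 4 (log2 fold change -4.58 ± 0.52). Junb of the same AP-1 family rose to 31.5 and 34.4 CPM at day 7, against 15.8 and 9.97 CPM at day 4 (log2 fold change 1.35 ± 0.20). Myc and Phlda1, other targets of the pathway, rose without overlap between the days, as did 6147 of the 18489 genes tested. Myc rose to 57.4 and 54.8 CPM at day 7, against 21.4 and 23.8 CPM at day 4 (log2 fold change 1.31 ± 0.10). Phlda1 rose to 14.6 and 16.7 CPM at day 7, against 1.83 and 0.732 CPM at day 4 (log2 fold change 3.58 ± 0.29). Notch pathway genes had 7 of 21 higher and 4 lower (median log2 fold change 0.38; 4 higher without WT day 7 replicate 1). The ligand Jag1 rose to 57.0 and 50.7 CPM at day 7, against 20.5 and 19.1 CPM at day 4 (log2 fold change 1.44 ± 0.10). The ligand Dll1 fell to 3.40 and 2.80 CPM at day 7, against 7.28 and 5.94 CPM at day 4 (log2 fold change -1.09 ± 0.24). The modifier Lfng and the target Hey1 rose (log2 fold change 2.76 ± 0.26 and 2.47 ± 0.25), and the effector Rbpj and the factor Hes6 fell (log2 fold change -0.73 ± 0.10 and -0.87 ± 0.14).

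Hox genes were low, with 34 of 39 tested, 1 higher and 6 lower (median log2 fold change -0.32), beside 17.7% and 19.1% of all genes tested. The lower count was 3 without WT day 7 replicate 1, WT day 7 replicate 2 or WT day 4 replicate 2. The higher count was 0 without WT day 7 replicate 1 or WT day 4 replicate 2 and 2 without WT day 7 replicate 2. Hoxa7 read 0.169 and 0.0965 CPM at day 7, against 0.759 and 1.65 CPM at day 4 (log2 fold change -3.14 ± 0.69), and Hoxa5 had 1 count at day 7 and 134 at day 4. The 1 higher member, Hoxa13, had 10 counts at day 7 and 1 at day 4, a ratio of 12.8 (95% counting interval 1.82 to 554), and lost its call without WT day 7 replicate 1 (0.105) or WT day 4 replicate 2 (0.107), and by DESeq2 (0.0564).

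Adhesion genes moved both ways. Of 27 cadherin and epithelial-mesenchymal genes 13 rose and 9 fell (median log2 fold change 0.29; 5 fell without WT day 7 replicate 1 or WT day 4 replicate 1). Vim, the mesenchymal filament protein vimentin, rose to 269.8 and 279 CPM in the WT day 7 libraries, against 63.0 and 46.7 CPM in the WT day 4 libraries (log2 fold change 2.32 ± 0.14, adjusted p = 4.17e-08). In WT it had averaged 257 CPM on day 0 and 98.0 CPM on day 2, so its level at day 7 was near that of day 0. Tgfb2, a ligand that drives the transition in many epithelia, rose to 86.0 and 70.9 CPM at day 7, against 1.16 and 0.794 CPM at day 4 (log2 fold change 6.31 ± 0.23). Several epithelial members fell. Cldn3, a tight junction claudin, read 4.78 and 6.39 CPM at day 7, against 28.2 and 24.9 CPM at day 4 (log2 fold change -2.25 ± 0.18). Grhl2, an epithelial factor, read 20.7 and 23.1 CPM at day 7, against 53.4 and 46.1 CPM at day 4 (log2 fold change -1.19 ± 0.11). Cdh3, P-cadherin, read 70.2 and 73.2 CPM at day 7, against 132 and 155 CPM at day 4 (log2 fold change -1.0 ± 0.12). The days did not overlap in any of these, nor in 6147 higher and 7109 lower genes of the 18489 tested. Others moved the opposite way, here chosen after their values were seen: the claudin Cldn6 (log2 fold change 0.76 ± 0.21) and Esrp2, a splicing regulator of epithelia (log2 fold change 1.11 ± 0.19), rose, and Mmp2, a matrix protease, fell (log2 fold change -0.43 ± 0.09). The keratins of simple epithelia, given above, rose too. Epcam, another epithelial protein, fell to 164 and 172 CPM at day 7, against 239.6 and 269 CPM at day 4 (log2 fold change -0.60 ± 0.12). Cdh1, E-cadherin, fell slightly to 741 and 805 CPM at day 7, against 1054 and 958 CPM at day 4 (log2 fold change -0.38 ± 0.13, adjusted p = 0.0367), a call lost without any 1 of the 4 libraries (0.0576 to 0.253); it remained high on both days.

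Collagen and laminin genes had 17 of 29 higher and 3 lower (median log2 fold change 1.08). Col5a1, a minor fibrillar collagen, rose to 105 and 127 CPM at day 7, against 10.7 and 7.94 CPM at day 4 (log2 fold change 3.64 ± 0.20). Col12a1 rose to 7.89 and 4.65 CPM at day 7, against 0.293 and 0.334 CPM at day 4 (log2 fold change 4.31 ± 0.32). The laminin Lamb3 rose to 8.79 and 10.2 CPM at day 7, against 1.34 and 1.23 CPM at day 4 (log2 fold change 2.88 ± 0.20). Col18a1 and Nid2 were among the 3 members that fell, a share below the 19.1% of all genes tested. Col18a1 read 207 and 219.8 CPM at day 7, against 379.8 and 344 CPM at day 4 (log2 fold change -0.76 ± 0.09). Nid2 read 109 and 123 CPM at day 7, against 174 and 161 CPM at day 4 (log2 fold change -0.53 ± 0.09). Of 28 listed symbols of actomyosin genes and YAP-TEAD targets 26 were tested, of which 14 rose and 0 fell (median log2 fold change 0.83). The annotation used does not hold the other symbols, Cyr61 and Ctgf, which does not mean that these genes went unmeasured. In edgeR 1 member was lower at an unadjusted p under 0.05, and 1 was called lower by DESeq2 and 0 by limma. Ccn1, a matricellular target of YAP, rose to 223 and 256 CPM at day 7, against 40.0 and 22.6 CPM at day 4 (log2 fold change 2.93 ± 0.21). The receptor Axl rose to 21.0 and 21.2 CPM at day 7, against 3.29 and 2.88 CPM at day 4 (log2 fold change 2.77 ± 0.22). Lats2, a kinase that inhibits YAP, rose to 19.2 and 18.3 CPM at day 7, against 3.66 and 2.34 CPM at day 4 (log2 fold change 2.63 ± 0.21). Other members rose with a wide spread at day 4. Acta2, smooth muscle actin, read 191 and 186 CPM in the WT day 7 libraries, against 32.7 and 7.19 CPM in the WT day 4 libraries (log2 fold change 3.23 ± 0.68, adjusted p = 0.00435). The scaffold Ahnak read 105 and 122 CPM at day 7, against 26.3 and 3.57 CPM at day 4 (log2 fold change 2.91 ± 0.69, adjusted p = 0.00901). The day 4 libraries differed widely in both, replicate 1 being the higher, and in a fit of only the libraries compared neither was called (0.0875 and 0.151).

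Axon guidance and ephrin genes, which also steer cell sorting in early embryos, had 23 of 37 higher and 3 lower (median log2 fold change 0.84). Nrp1, a semaphorin and VEGF coreceptor, rose to 30.1 and 23.4 CPM at day 7, against 0.328 and 0.146 CPM at day 4 (log2 fold change 6.76 ± 0.40). Ntn1, the ligand netrin, rose to 44.3 and 34.0 CPM at day 7, against 3.59 and 3.20 CPM at day 4 (log2 fold change 3.53 ± 0.15). The receptor Plxna2 rose to 40.4 and 31.8 CPM at day 7, against 2.71 and 2.55 CPM at day 4 (log2 fold change 3.78 ± 0.22). Epha1 fell to 53.9 and 59.6 CPM at day 7, against 106 and 119.6 CPM at day 4 (log2 fold change -0.99 ± 0.19). The semaphorins Sema4d and Sema6a fell as well (log2 fold change -0.44 ± 0.08 and -0.56 ± 0.15), Sema6a not without WT day 7 replicate 1 (0.0967). Of 21 beta protocadherins 13 were tested, 7 rose and 0 fell (median log2 fold change 2.43); 0 were lower at an unadjusted p under 0.05 in edgeR or called lower by DESeq2 or limma. The higher count was 3 without WT day 7 replicate 1 or WT day 4 replicate 2, and a fit with a stricter filter kept only 2 of these low genes, both called; DESeq2 and limma each called 4 higher. Pcdhb22 read 5.12 and 4.68 CPM at day 7, against 0.724 and 0.418 CPM at day 4 (log2 fold change 3.08 ± 0.28). Pcdhb17 read 0.314 and 0.289 CPM at day 7, against 0.0345 and 0.0418 CPM at day 4 (log2 fold change 2.90 ± 0.68). Pcdhb19 read 0.652 and 0.434 CPM at day 7, against 0.121 and 0.0418 CPM at day 4 (log2 fold change 2.65 ± 0.55).

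Cholesterol synthesis genes had 15 of 24 higher and 0 lower (median log2 fold change 0.38); 0 were lower at an unadjusted p under 0.05 in edgeR or called lower by DESeq2 or limma. Hmgcs1, which makes the precursor of mevalonate, rose to 1167 and 1139 CPM at day 7, against 656 and 625 CPM at day 4 (log2 fold change 0.85 ± 0.08, adjusted p = 2.05e-06), and Nsdhl and Cyp51 of the later steps rose by 0.72 and 0.69 on the log2 scale. Genes of the integrated stress response and amino acid supply had 15 of 25 higher and 1 lower (median log2 fold change 0.40), with 9 higher without WT day 7 replicate 2 and 8 without WT day 4 replicate 2. Trib3, a target of that response, rose to 42.7 and 48.7 CPM at day 7, against 17.7 and 16.1 CPM at day 4 (log2 fold change 1.43 ± 0.12). Vldlr rose to 74.8 and 76.8 CPM at day 7, against 28.2 and 25.5 CPM at day 4 (log2 fold change 1.5 ± 0.15). Gpt2, an alanine transaminase, rose to 181 and 193 CPM at day 7, against 113 and 119 CPM at day 4 (log2 fold change 0.69 ± 0.06). Nupr1 was the 1 that fell (log2 fold change -1.71 ± 0.39).

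Glycolysis and hypoxia genes had 8 of 33 higher and 9 lower (median log2 fold change -0.09), beside 17.7% and 19.1% of all genes tested. The glucose transporter Slc2a1 fell to 381 and 418 CPM at day 7, against 885 and 986 CPM at day 4 (log2 fold change -1.23 ± 0.12). Pdk1, which restrains pyruvate oxidation, fell to 122 and 130.0 CPM at day 7, against 227 and 287 CPM at day 4 (log2 fold change -1.03 ± 0.10). Ndrg1, induced by hypoxia, fell to 20.3 and 25.6 CPM at day 7, against 47.3 and 53.8 CPM at day 4 (log2 fold change -1.14 ± 0.13). Other genes of glucose use and hypoxia rose. Hexokinase Hk2 rose to 357 and 397 CPM at day 7, against 184 and 165 CPM at day 4 (log2 fold change 1.11 ± 0.11). The lactate transporter Slc16a1 rose to 492 and 428 CPM at day 7, against 194 and 186 CPM at day 4 (log2 fold change 1.28 ± 0.10). The growth factor Vegfa rose to 95.7 and 95.3 CPM at day 7, against 36.4 and 35.5 CPM at day 4 (log2 fold change 1.41 ± 0.09). Mitochondrially encoded genes had 3 of 13 lower and 0 higher (median log2 fold change -0.14); 0 were higher at an unadjusted p under 0.05 in edgeR or called higher by DESeq2 or limma. The 3 were mt-Co1 (log2 fold change -0.37 ± 0.09), mt-Co3 (log2 fold change -0.36 ± 0.13) and mt-Atp6 (log2 fold change -0.41 ± 0.15), beside 19.1% lower among all genes tested. The count was 1 without WT day 7 replicate 1 or WT day 4 replicate 1, 0 without WT day 7 replicate 2, and 6 in a fit of only the libraries compared.

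Cell cycle genes had 8 of 30 higher and 13 lower (median log2 fold change -0.21), with 8 lower without WT day 7 replicate 1 and 7 without WT day 4 replicate 2. For this list and the p53 and interferon lists below, the shares of all genes tested were 17.7% higher and 19.1% lower. Among inhibitors Cdkn1a, the p53 target p21, rose to 141 and 127 CPM at day 7, against 56.6 and 50.7 CPM at day 4 (log2 fold change 1.32 ± 0.09, adjusted p = 1.56e-07). Cdkn1b, p27, fell to 116 and 117 CPM at day 7, against 194 and 179 CPM at day 4 (log2 fold change -0.67 ± 0.08). Kinases and cyclins were divided too. The kinase Cdk6 rose to 105 and 126 CPM at day 7, against 51.0 and 42.8 CPM at day 4 (log2 fold change 1.30 ± 0.13). Cyclin Ccne2 rose to 37.3 and 34.2 CPM at day 7, against 15.6 and 17.6 CPM at day 4 (log2 fold change 1.11 ± 0.09). The mitotic kinase Bub1 fell to 192 and 189 CPM at day 7, against 239 and 273 CPM at day 4 (log2 fold change -0.43 ± 0.07). Of 23 p53 targets 9 rose and 5 fell (median log2 fold change 0.12; 3 fell without WT day 7 replicate 2). Perp, a desmosomal protein, rose to 46.9 and 50.2 CPM at day 7, against 18.2 and 15.5 CPM at day 4 (log2 fold change 1.52 ± 0.13). Sesn2 rose to 153 and 157 CPM at day 7, against 99.3 and 102 CPM at day 4 (log2 fold change 0.63 ± 0.07). Pmaip1, the death effector Noxa, fell to 8.62 and 6.78 CPM at day 7, against 36.4 and 42.7 CPM at day 4 (log2 fold change -2.36 ± 0.15, adjusted p = 9.37e-08), with Sesn1 (log2 fold change -0.88 ± 0.14) and Ckap2 (log2 fold change -0.35 ± 0.07) also lower. Interferon response genes had 3 of 27 higher and 11 lower (median log2 fold change -0.39; 6 lower by limma). The antiviral gene Rsad2 fell to 0.290 and 0.217 CPM at day 7, against 2.53 and 3.26 CPM at day 4 (log2 fold change -3.50 ± 0.35). The factor Irf1 fell to 34.3 and 31.7 CPM at day 7, against 81.6 and 145 CPM at day 4 (log2 fold change -1.78 ± 0.20). Bst2, tetherin, fell to 77.2 and 85.1 CPM at day 7, against 190.1 and 179 CPM at day 4 (log2 fold change -1.18 ± 0.14). The 3 members that rose were under 1 CPM at day 4. Usp18, which removes Isg15 from proteins, rose to 7.94 and 6.94 CPM at day 7, against 0.155 and 0.125 CPM at day 4 (log2 fold change 5.69 ± 0.52). The chemokine Cxcl10 rose to 2.32 and 2.89 CPM at day 7, against 0.569 and 0.230 CPM at day 4 (log2 fold change 2.67 ± 0.40). Isg15 itself rose to 0.821 and 0.482 CPM at day 7, against 0.155 and 0.209 CPM at day 4 (log2 fold change 1.84 ± 0.54), a call lost without WT day 7 replicate 1 (0.140) or WT day 4 replicate 1 (0.0971).

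**Figure D4:**
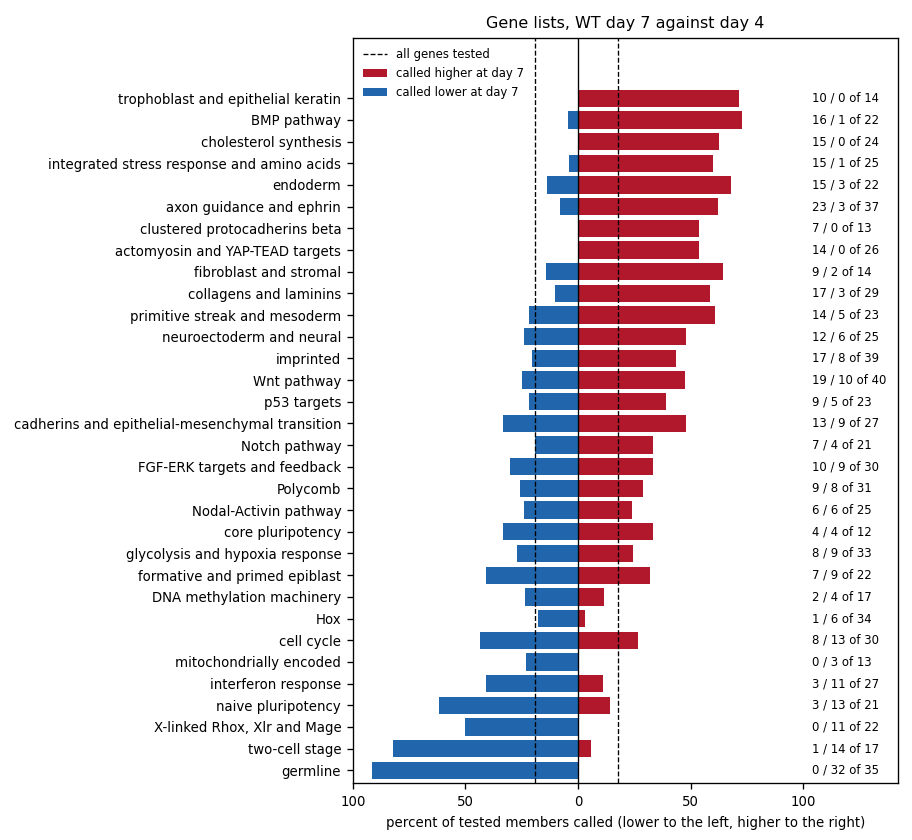
Share of the tested members of each of the 32 gene lists called higher at day 7 (red, to the right) and lower at day 7 (blue, to the left), in percent, with the counts higher / lower of tested at the right edge. Dashed lines mark the share of all genes tested (17.7% higher, 19.1% lower); germline, two-cell-stage and naive genes extend farthest to the left, and BMP, trophoblast and endoderm genes farthest to the right.

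The same step was compared between genotypes through the difference of the 2 changes, TKO minus WT. It was called for 3471 genes (18.8% of those tested), 1657 of them with a more positive and 1814 with a more negative change in TKO. Dnmt1 was low in TKO on both days, at 36.3 and 37.2 CPM in the TKO day 7 libraries, against 36.2 and 40.7 CPM in the TKO day 4 libraries, and the WT values are given above. Sox17 rose less in TKO, where it read 4.40 and 5.04 CPM in the TKO day 7 libraries, against 1.54 and 0.782 CPM in the TKO day 4 libraries, a difference of -7.44 ± 0.65, adjusted p = 6.86e-06. Hesx1 read 0.144 and 0.0826 CPM in the TKO day 7 libraries, against 0.313 and 0.0460 CPM in the TKO day 4 libraries (TKO minus WT difference -10.60 ± 1.24, adjusted p = 6.28e-05). With 1 count of Hesx1 over both WT day 4 libraries, the size of this difference is uncertain. The streak genes T, Mixl1 and Eomes rose further in TKO. T read 516 and 527 CPM in the TKO day 7 libraries, against 5.71 and 1.03 CPM in the TKO day 4 libraries (TKO minus WT difference 4.91 ± 0.89, adjusted p = 0.00414). Mixl1 read 75.1 and 85.5 CPM in the TKO day 7 libraries, against 0.50 and 0.368 CPM in the TKO day 4 libraries (TKO minus WT difference 4.01 ± 0.43, adjusted p = 3.14e-05). Eomes read 149 and 151 CPM in the TKO day 7 libraries, against 5.38 and 2.62 CPM in the TKO day 4 libraries (TKO minus WT difference 2.21 ± 0.48, adjusted p = 0.00791; 0.0761 in a fit of only the libraries compared).

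Lhx1 and Cer1 rose in both genotypes. Lhx1 read 216 and 228 CPM in the TKO day 7 libraries, against 4.96 and 0.713 CPM in the TKO day 4 libraries. Cer1 read 219 and 243 CPM in the TKO day 7 libraries, against 5.23 and 0.759 CPM in the TKO day 4 libraries. The TKO day 4 libraries stood above the WT day 4 libraries in both genes. The differences between the steps (-3.99 and -3.96 on the log2 scale, adjusted p = 0.0311 and 0.0231) were lost without single libraries (adjusted p up to 0.122 and 0.0865, both without a WT day 4 library). The germline genes Ddx4, Mael and Dazl, near 0 at day 7 in WT, were not in TKO. Ddx4 read 24.2 and 23.5 CPM in the TKO day 7 libraries, against 43.4 and 32.8 CPM in the TKO day 4 libraries (TKO minus WT difference 6.26 ± 0.35, adjusted p = 1.97e-07). Mael read 2.01 and 1.87 CPM in the TKO day 7 libraries, against 7.90 and 4.97 CPM in the TKO day 4 libraries (TKO minus WT difference 6.82 ± 0.77, adjusted p = 4.29e-05). Dazl read 26.4 and 21.2 CPM in the TKO day 7 libraries, against 7.50 and 7.54 CPM in the TKO day 4 libraries (TKO minus WT difference 8.65 ± 0.60, adjusted p = 9.98e-07). Dazl thus rose in TKO between day 4 and day 7, and Mael fell less than in WT. In WT each had 1 count over both day 7 libraries, so the size of these differences is uncertain. Zscan4f, at 0 counts in both WT day 7 libraries, read 93.5 and 179.8 CPM in the TKO day 7 libraries, against 17.5 and 5.45 CPM in the TKO day 4 libraries. The pluripotency factor Sox2 rose in WT and read 15.4 and 16.8 CPM in the TKO day 7 libraries, against 39.9 and 22.4 CPM in the TKO day 4 libraries (TKO minus WT difference -1.53 ± 0.29, adjusted p = 0.00266). The difference was not called for Fgf5, which read 284 and 293 CPM in the TKO day 7 libraries, against 72.2 and 113 CPM in the TKO day 4 libraries (TKO minus WT difference 0.34 ± 0.29, adjusted p = 0.482).

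**Figure D5:**
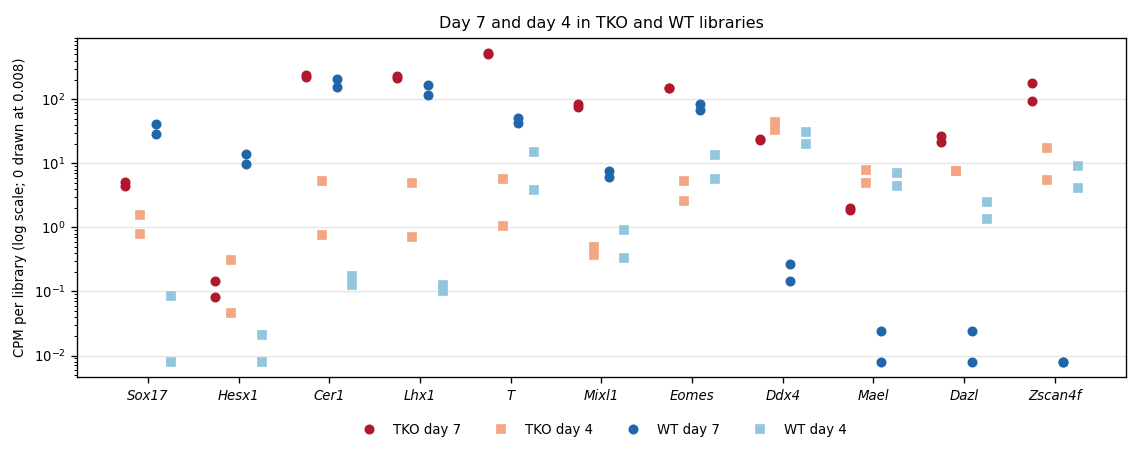
Levels in CPM (log scale; 0 drawn at 0.008) of 11 genes in the TKO (red, left) and WT (blue, right) libraries, with circles for day 7 and squares for day 4. Sox17 and Hesx1 are higher in WT than in TKO at day 7, T and Mixl1 are higher in TKO, and the germline genes and Zscan4f lie near or at 0 at day 7 in WT but not in TKO.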

How the data were processed

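Total RNA of E14 cultures was taken with Trizol and treated with DNase, and poly(A) RNA was made into stranded libraries, per the labels' protocols. The authors quantified transcripts with kallisto, per the submitters' processing notes, which name the mouse builds GRCm38 and mm10; the version, the annotation and the handling of replicates are not given in the sources used here. Per the file headers, the deposited files hold estimated counts, TPM and effective lengths for 119414 transcripts per library. TPM values are the authors' own.

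Estimated counts were summed per gene (116728 transcripts matched GENCODE vM21; unmatched ones held 0.946 to 0.960% of the counts of the 4 libraries) and rounded, giving 35975 genes. Tests used all 16 libraries in a robust quasi-likelihood fit of edgeR 4.0.16 (R 4.3.3), after TMM scaling and filterByExpr, with 1 mean for each of 8 groups. The difference of TKO and WT changes was tested in the same fit. CPM use effective library sizes. DESeq2 1.42.0, limma 3.58.1 on log2(TPM + 1), other scalings, filters and library sets were alternatives. On simulated counts of 18489 genes, 95 of 100 2-fold and 100 of 100 4-fold changes were recovered, with 10 false among 205 calls. Whether these values hold for the measured genes, some with few counts or with replicates far apart, was not tested. Genes in near-identical copies are uncertain, since kallisto divides shared reads.

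Named genes were drawn from the 12 largest rises and falls at 5 CPM or more, up to 3 members per direction of each of 32 gene lists, a fixed set of marker genes, the 5 largest differences between genotypes in each direction and the 5 genes whose day 4 libraries lay farthest apart. The comparison, its lists and these rules were chosen with earlier results of these data known. Dux and Tex13 were not analysed here. Some genes that the naming rule selects are not reported here.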

Additional observations from a re-analysis of the deposited data

Results flagged for a closer look

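The change from day 4 to day 7 differed between TKO and WT (adjusted p under 0.05 by edgeR's test of the difference, TKO minus WT, log2 scale) for 3471 genes. Of the 201 genes that the naming rule selects it differed for 111, 45 with a more positive and 66 with a more negative change in TKO. The 43 given here are those selected by size, as fixed markers or for their difference between genotypes, 19 with a more positive and 24 with a more negative change; genes selected only as list members are left out.

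More negative in TKO were endoderm and anterior genes, at -10.6 for Hesx1, -7.44 for Sox17, -5.16 for Gata6, -3.99 for Lhx1, -3.96 for Cer1 and -2.5 for Gata4. Gata6 rose in TKO too, to 11.7 and 11.9 CPM at day 7, against 3.73 and 1.08 CPM at day 4. In WT it read 18.5 and 12.2 CPM at day 7, against 0.103 and 0.0627 CPM at day 4. The genotypes thus lay farther apart in Gata6 at day 4 than at day 7. Secreted factors and enzymes followed at -9.24 for Sfrp5, -8.13 for Spink1, -7.86 for Pga5, -6.21 for Cyp26a1, -4.38 for Bmper and -4.2 for Bmp2. Stromal and trophoblast markers stood at -3.32 for Col3a1 and -3.29 for Gata3. Neural genes stood at -2.13 for Pax6, -2.03 for Tubb3 and -1.81 for Sox1. Pluripotency and epithelial genes stood at -1.71 for Utf1, -1.53 for Sox2, -1.48 for Pou3f1, -0.75 for Cdh1, -0.75 for Epcam, -0.73 for Otx2 and -0.44 for Lin28a.

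More positive in TKO were streak and endoderm genes, at 4.91 for T, 4.01 for Mixl1, 3.48 for Foxa2 and 2.21 for Eomes. Germline genes stood at 8.65 for Dazl, 6.85 for Mov10l1, 6.82 for Mael, 6.26 for Ddx4 and 4.98 for Psma8. The others were Tdh at 4.61, Ebf1 at 1.82, Ooep at 1.55, Thy1 at 1.27 and Klf4 at 1.26. Zscan4f (14.66), Zscan4-ps2 (14.31), Zscan4c (14.02), Zscan4-ps3 (13.88) and Zscan4b (13.44) had 0 counts in WT at day 7, so these fitted values depend on the prior count and are no bounds. The sizes for Mael and Dazl, at 1 count over both WT day 7 libraries, and Hesx1, at 1 over both WT day 4 libraries, are uncertain too. 

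Of the 43 differences 13 lost their call in 1 or more of 16 alternatives, and 5 did so without single libraries. Thy1 lost it in 11 alternatives, the replicate block (0.0583) and 6 libraries left out among them (adjusted p 0.0742 to 0.214; every library but WT day 7 replicate 2 and WT day 4 replicate 2). Col3a1 lost it in 8, including 5 libraries left out (0.0513 to 0.159; WT day 7 replicate 1, both of WT day 4, and replicate 2 of TKO day 7 and of TKO day 4). Lhx1 lost it in 8, including 5 libraries left out (0.0578 to 0.122; WT day 7 replicate 1, both of WT day 4 and both of TKO day 7). Ooep lost it in 7, including 6 libraries left out (0.0578 to 0.166; every library but WT day 4 replicate 1 and TKO day 4 replicate 1). Cer1 lost it in 6, including 3 libraries left out (0.0562 to 0.0865; WT day 7 replicate 1 and both of WT day 4). Tubb3 (0.0758), Foxa2 (0.0525), Eomes (0.0761), Gata4 (0.0667) and Cdh1 (0.0626) lost theirs in a fit of only the libraries compared, Gata4 also with an effective-length offset (0.104) and Cdh1 also with limma (0.0967). Gata6 (0.0541), Lin28a (0.120) and Ebf1 (0.208) lost theirs with limma only.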

How the results depend on the processing

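Across the alternatives run, 4651 to 7069 genes were called between day 7 and day 4, against 6811. Leaving out each of the 4 libraries in turn gave 4651 to 5647 called, 2496 to 2909 higher, 2155 to 2747 lower and 2525 to 2871 by 2-fold or more; for the difference of TKO and WT changes, leaving out each of 8 libraries gave 2450 to 3595. With limma on log2(TPM + 1), 1951 genes were called lower and 1348 by 2-fold or more; the pseudocount shrinks changes of low genes. The cause of the other differences was not tested. Of the 191 called genes that the naming rule selects, 16 lost their call with limma, 7 with no filter on low counts, 5 with an effective-length offset and 10 to 19 without 1 library; 0 reversed in any alternative. Of 64 counts of list members called, 23 moved by over 1.5 times in 1 or more alternatives. The median log2 fold change of all genes lay between -0.04 and 0.02.

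With limma on log2(TPM + 1) the sign of the TKO minus WT difference turned positive for Cdx2 (2.435), Nog (1.1433), Samd3 (1.0923), Plxna2 (0.8889), Pcdhb22 (0.6392), Pcdhb17 (0.4809) and Pcdhb19 (0.2284), and negative for Rsad2 (-0.9509). None of these differences was called in the main test, but limma called each of them with the opposite sign. Its adjusted p-values ran from 2.72e-07 for Cdx2 to 0.0271 for Pcdhb19. The cause was not tested.

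With the replicate number as a block 6478 genes were called, 3131 higher and 3347 lower, 2970 by 2-fold or more, and 3180 for the difference between genotypes; mt-Co3 lost its call (adjusted p = 0.0621), the differences between genotypes of Thy1 (0.0583), Mesp2 (0.0661) and Dppa4 (0.0516) lost theirs, and that of Col1a1 passed (0.0447). The labels do not say that the numbers mark a shared day, so the number was not taken to pair libraries. The differences between replicates 1 and 2 at day 7 and at day 4 had r = -0.0359 across genes. With 2 libraries a group this value cannot exclude pairing.

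With 2 libraries a group, a floor of 3 counts over a group stands at 0.0362 CPM at day 7 and 0.0283 CPM at day 4, which limits what can be said of genes at 0.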
